A study of Mus musculus with 12 samples.

Results

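The genes described here are 8 markers of the formative and primed epiblast, Otx2, Fgf5, Pou3f1, Zic2, Sox3, Tcf15, Foxd3 and Grhl2, out of 21728 genes listed in any of the gene count files. They were chosen as published markers of the state that epiblast-like cells model, by their symbols in the deposited expression tables, and were linked by Ensembl identifier to the counts of 12 mRNA libraries. All 8 were listed in all 12 libraries, the lowest count being 44 reads (Sox3), so no value below is a missing one. All cells derived from C57BL/6 embryonic stem cells of the genotype Blimp1-mVenus; Stella-ECFP (BVSC), whose fluorescent proteins report the germ cell genes Prdm1 and Dppa3. The libraries fall into 4 groups of 3, set by stage and by 100 nM bisphenol A (BPA), a compound that can act on oestrogen receptors. They are day 5 primordial germ cell-like cells (PGCLCs) of the BPA arm, untreated day 5 PGCLCs, BPA-exposed epiblast-like cells (EpiLCs) and untreated EpiLCs. All groups share the reporter genotype, and PGCLCs were sorted for both reporters. For EpiLCs the labels place BPA in the medium for the last 24 of 48 hours of culture, and they leave unsaid whether PGCLC aggregates were given more of it. Nothing in the labels ties a replicate to its own culture, and the p-values therefore reflect only how much these libraries vary, which may be technical.

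Embryonic stem cells that leave the naive state pass through a formative state, in which they become able to respond to germ cell and somatic signals, and then a primed state. Otx2 and Pou3f1 (Oct6) are transcription factors of this exit, and in mouse cells loss of Otx2 is known to widen access to the germ line. Fgf5 is a secreted growth factor and the classical marker of the post-implantation epiblast. Zic2, Sox3, Tcf15, Foxd3 and Grhl2 encode transcription factors of the zinc finger, SOX, basic helix-loop-helix, forkhead and grainyhead families, and Grhl2 is known for holding epithelial enhancers active during the exit.

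Sequences just before the transcription start were held for 3 of the 8 genes (RefSeq, GRCm38.p6), and are shown because Otx2 and Foxd3 were both higher in PGCLCs while Fgf5 was not. Each run is the 250 bases before a start, read 5′ to 3′ on the gene's strand, and holds no annotated exon of that gene. Exons of other genes were not checked. Capitals mark matches to the motifs searched. For Otx2, which has 4 starts in the table, the start farthest upstream is shown. The annotated Otx2 gene begins farther upstream still, at 48673819.
Otx2, chr14:48667645-48667894 (minus strand): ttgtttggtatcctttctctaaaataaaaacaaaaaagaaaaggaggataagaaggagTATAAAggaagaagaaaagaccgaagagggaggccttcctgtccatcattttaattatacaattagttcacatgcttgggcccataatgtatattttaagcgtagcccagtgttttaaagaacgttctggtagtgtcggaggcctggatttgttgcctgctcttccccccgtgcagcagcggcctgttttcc
Foxd3, chr4:99656049-99656298 (plus strand): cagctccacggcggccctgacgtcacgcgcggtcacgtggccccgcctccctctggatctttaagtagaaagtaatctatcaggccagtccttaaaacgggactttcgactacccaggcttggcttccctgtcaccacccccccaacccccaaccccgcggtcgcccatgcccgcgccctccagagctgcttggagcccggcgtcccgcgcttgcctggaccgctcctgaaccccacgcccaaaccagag
Fgf5, chr5:98253934-98254183 (plus strand): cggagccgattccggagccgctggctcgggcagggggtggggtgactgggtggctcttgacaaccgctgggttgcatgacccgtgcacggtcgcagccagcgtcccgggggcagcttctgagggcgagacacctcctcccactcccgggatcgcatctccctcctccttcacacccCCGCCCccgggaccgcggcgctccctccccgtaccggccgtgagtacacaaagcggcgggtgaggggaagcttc
The capitals are a TATA box (TATAAA) in Otx2 and a GC box (GGGCGG, here on the opposite strand as CCGCCC) in Fgf5, and Foxd3 had no match. The motifs searched on both strands were these, the octamer ATGCAAAT of POU factors, the OTX motif GGATTA, the TCF/LEF motif CTTTGAT and the GRHL motif AACCGGTT, and none of them overlaps another in these windows. The OTX motif had 1 match before another Otx2 start, in a window not shown (48665110 to 48665359) that lies wholly in annotated exon. The motifs were also counted in all 32851 windows of 250 bases before starts, whether or not these held annotated exon. Of these, 12.4% held the TATA box, 32.7% the GC box and 1.60% the octamer. The OTX motif was in 6.25%, the TCF/LEF motif in 3.21% and the GRHL motif in 0.116%. The windows of Foxd3 and Fgf5 were rich in CG pairs, with 21 and 24 and a GC content of 65.6% and 70.8%, whereas that of Otx2 had 6 CG pairs and 42.0% GC (medians of all windows, 6 and 52.4%). A match is a description of these letters only.

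Counts assigned to genes numbered 30375633 to 34309195 per PGCLC library and 11785338 to 22029195 per EpiLC library, and a gene left out of a file had at most 9 counts (0.262 to 0.764 counts-per-million, CPM). The reporter genes fitted the labels, Prdm1 averaging 152 ± 13.3 CPM in BPA PGCLCs and 191 ± 11.3 CPM in untreated PGCLCs, against 11.4 ± 0.669 CPM in BPA EpiLCs and 10.5 ± 0.668 CPM in untreated EpiLCs (SD, n = 3 each). Of the 4 markers used to check the EpiLC label, Pou3f1 and Dnmt3b were higher in EpiLCs, while Otx2 was higher in PGCLCs and Fgf5 was low in all groups, as described below. Untreated EpiLC replicate 3 stood apart: 14.3% of its counts fell in ribosomal protein genes, against 8.35% to 9.41% in the other EpiLC libraries. The title and the description of that library disagree on its replicate, and the title was followed. BPA PGCLC replicate 3 stood apart in endoderm genes, given beside Fgf5. Library names follow different schemes in EpiLCs, untreated PGCLCs and BPA PGCLCs, and a difference in handling behind them cannot be told apart from stage or, in PGCLCs, from BPA.

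Between the stages the 8 genes split. Otx2, Zic2 and Foxd3 were higher in PGCLCs than in EpiLCs, Pou3f1, Sox3 and Grhl2 were lower, and Tcf15 and Fgf5 were not called. That makes 6 of 8 called in the BPA arm, 3 in each direction, where 57.5% of the 17608 genes tested were called (32.5% higher, 25.0% lower). The same 6 were called in the untreated cells, where 55.6% of all genes were (30.4% higher, 25.2% lower). The share of members is thus near the background. The median log2 change of the 8 was -0.013 in BPA and -0.35 in untreated cells, beside 0.13 and 0.074 over all genes tested. Summed over the 8 genes, the libraries held 257, 250.5 and 233 CPM in BPA PGCLCs and 264, 262 and 297 CPM in untreated PGCLCs, against 214, 219 and 224 CPM in BPA EpiLCs and 199.6, 185 and 265 CPM in untreated EpiLCs. Levels in the text are CPM in replicates 1, 2 and 3, from 1 scaling of the 12 libraries. A change is a fitted log2 difference ± SE with an adjusted p from the edgeR quasi-likelihood test with Benjamini-Hochberg adjustment over all genes, called under 0.05. In bulk libraries fewer cells with a transcript and less of it per cell cannot be told apart.

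**Figure D1:**
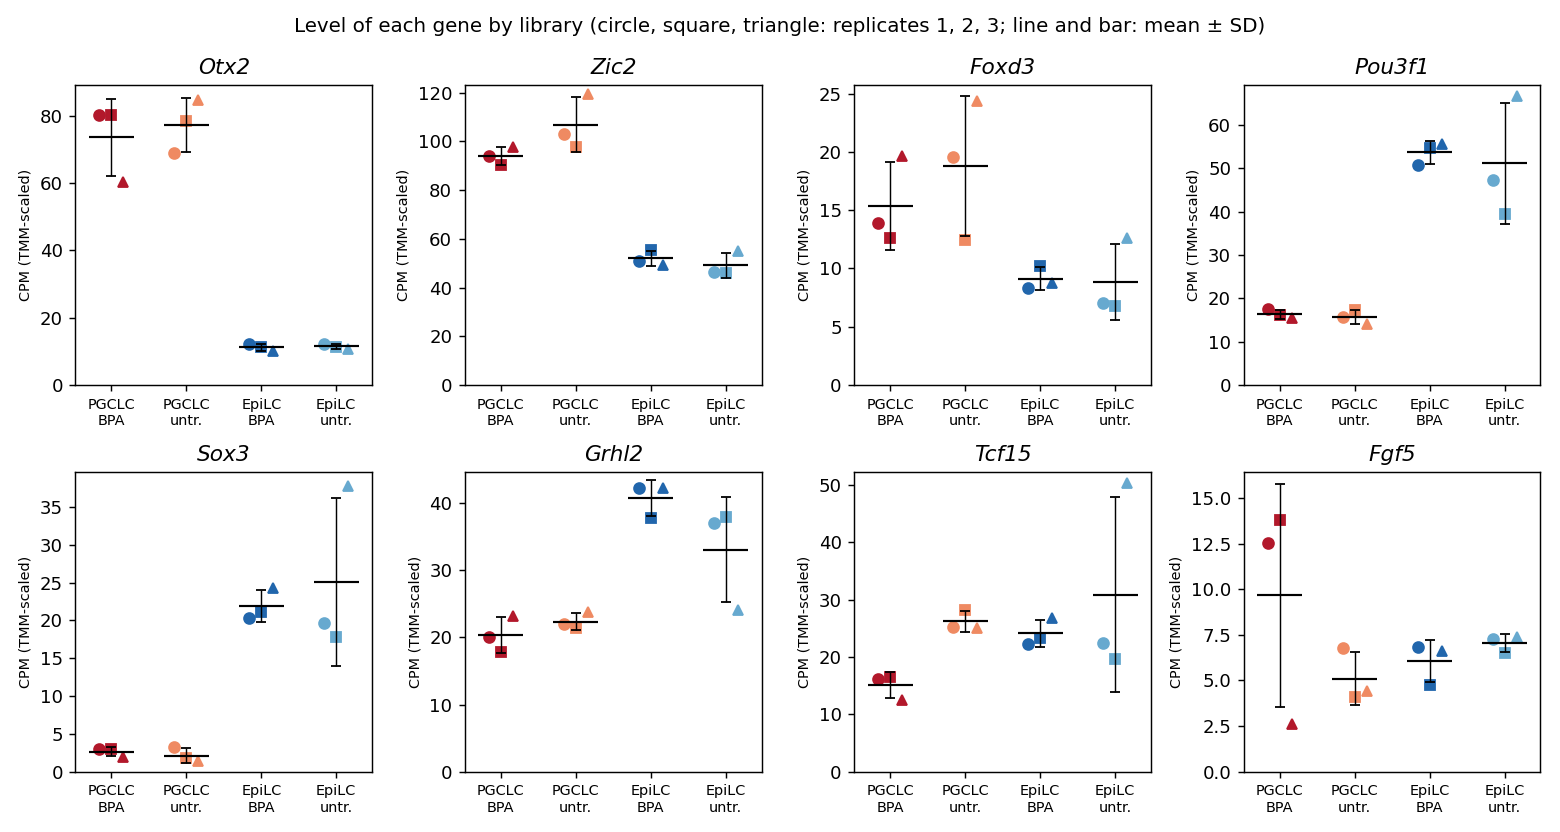
Level of each gene (CPM, vertical axes from 0) in every library of the 4 groups, with the mean and SD of 3 libraries. The 6 PGCLC libraries sit above all EpiLC libraries for Otx2 and Zic2 and below them for Pou3f1, Sox3 and Grhl2; Tcf15 separates BPA from untreated PGCLCs, and Fgf5 has its highest and its lowest values within BPA PGCLCs.

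Otx2 (ENSMUSG00000021848, chromosome 14, 48657677 to 48673819, minus strand, mm10) had the widest rise of the 8. It stood at 80.1, 80.2 and 60.4 CPM in BPA PGCLCs and 68.8, 78.4 and 84.7 CPM in untreated PGCLCs, against 12.3, 11.3 and 10.1 CPM in BPA EpiLCs and 12.3, 11.2 and 10.8 CPM in untreated EpiLCs. Every PGCLC library was thus far above every EpiLC library, while BPA and untreated libraries overlapped within each stage. The log2 change from stage was 2.71 ± 0.15 in the BPA arm (adjusted p = 3.38e-08) and 2.75 ± 0.15 in untreated cells (adjusted p = 3.30e-08), a fold of 6.56 and 6.74. Otx2 is also a gene of visceral endoderm and anterior neural tissue. The 13 endoderm genes summed to 2987 to 6569 CPM in BPA PGCLCs and 886 to 1371 CPM in untreated PGCLCs, against 24.4 to 27.3 CPM in BPA EpiLCs and 21.8 to 28.7 CPM in untreated EpiLCs. Between the PGCLC arms, where that sum differed, the Otx2 change was -0.06 ± 0.13 (adjusted p = 0.840), and the part of endoderm cells in the stage difference was not tested. An antisense transcript, Otx2os1, shares 154 exon bases with Otx2 and was listed in 2 libraries, at 14 and 16 counts, against at least 137 counts of Otx2 in every library.

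Zic2 (ENSMUSG00000061524, chromosome 14, 122475435 to 122479852, plus strand), a zinc finger factor that binds enhancers of the exit from naive pluripotency, followed at a smaller scale. It measured 94.1, 90.4 and 97.5 CPM in BPA PGCLCs and 103, 97.9 and 119 CPM in untreated PGCLCs, against 51.0, 55.5 and 49.3 CPM in BPA EpiLCs and 46.4, 46.0 and 54.9 CPM in untreated EpiLCs. The stages did not overlap, and neither did the PGCLC arms, in which all 3 BPA libraries lay below all 3 untreated ones by a narrow gap. The stage change was 0.86 ± 0.11 in the BPA arm (adjusted p = 3.11e-05) and 1.12 ± 0.11 in untreated cells (adjusted p = 4.19e-06).

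Foxd3 (ENSMUSG00000067261, chromosome 4, 99656299 to 99658622, plus strand, 1 exon), a forkhead factor needed in the mouse epiblast and in pluripotent cells, was the least even of the genes that rose. Its values were 13.9, 12.6 and 19.7 CPM in BPA PGCLCs and 19.6, 12.4 and 24.3 CPM in untreated PGCLCs, against 8.31, 10.2 and 8.79 CPM in BPA EpiLCs and 7.04, 6.81 and 12.6 CPM in untreated EpiLCs. In the untreated cells the stages touched, since the lowest PGCLC library, at 12.4 CPM, lay just under untreated EpiLC replicate 3. The stage change was 0.76 ± 0.29 in the BPA arm (adjusted p = 0.0409) and 1.10 ± 0.29 in untreated cells (adjusted p = 0.00675). The BPA arm's call was lost in 8 of 15 alternatives, with adjusted p up to 0.157 without BPA PGCLC replicate 3, where the change was 0.55. Leaving out EpiLC BPA replicate 1, 2 or 3 gave an adjusted p of 0.119, 0.0686 and 0.106, and leaving out BPA PGCLC replicate 1 gave 0.0584.

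Sox3 (ENSMUSG00000045179, chromosome X, 60891366 to 60893430, minus strand, 1 exon), a SOXB1 factor of the epiblast and early neural plate, had the widest fall. It was at 2.99, 2.96 and 1.98 CPM in BPA PGCLCs and 3.22, 1.80 and 1.40 CPM in untreated PGCLCs, against 20.4, 21.1 and 24.3 CPM in BPA EpiLCs and 19.7, 17.7 and 37.8 CPM in untreated EpiLCs. The lowest EpiLC library was well above the highest PGCLC library, and the highest value of all was in untreated EpiLC replicate 3. The stage change was -3.06 ± 0.35 in the BPA arm (adjusted p = 1.42e-05) and -3.54 ± 0.36 in untreated cells (adjusted p = 6.06e-06). The 11 neuroectoderm genes listed, of 12 on the list, summed to 86.8 to 93.6 CPM in BPA PGCLCs and 107 to 113 CPM in untreated PGCLCs, against 158 to 167 CPM in BPA EpiLCs and 161 to 180.3 CPM in untreated EpiLCs. The list did not move one way: of 9 genes tested, 3 were higher and 3 lower in PGCLCs in each arm. Over all genes tested, 57.5% were called in the BPA arm and 55.6% in untreated cells. The lower ones, Sox1, Nes and Tubb3, are the most abundant of the list in EpiLCs and carry the sum, while Hesx1 was higher by 3.23 in the BPA arm and 2.65 in untreated cells on the log2 scale. Their part in the Sox3 difference was not tested.

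Pou3f1 (ENSMUSG00000090125, chromosome 4, 124656807 to 124660655, plus strand, 1 exon), the POU factor Oct6, was also lower in PGCLCs. It reached 17.4, 16.2 and 15.4 CPM in BPA PGCLCs and 15.6, 17.2 and 14.1 CPM in untreated PGCLCs, against 50.6, 54.6 and 55.6 CPM in BPA EpiLCs and 47.4, 39.5 and 66.6 CPM in untreated EpiLCs. No EpiLC library came near the PGCLC range. The stage change was -1.72 ± 0.17 in the BPA arm (adjusted p = 4.72e-06) and -1.71 ± 0.17 in untreated cells (adjusted p = 5.82e-06).

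Grhl2 (ENSMUSG00000022286, chromosome 15, 37233036 to 37363569, plus strand) showed the smallest of the called stage changes in untreated cells. Its levels were 20.1, 17.8 and 23.2 CPM in BPA PGCLCs and 22.0, 21.4 and 23.7 CPM in untreated PGCLCs, against 42.2, 37.7 and 42.3 CPM in BPA EpiLCs and 37.1, 38.0 and 24.1 CPM in untreated EpiLCs. All EpiLC libraries were above all PGCLC libraries, but untreated EpiLC replicate 3 only just, and unlike Sox3, Pou3f1 and Tcf15 this gene was lowest, not highest, in that library among EpiLCs. The stage change was -1.001 ± 0.167 in the BPA arm (adjusted p = 0.000295) and -0.57 ± 0.17 in untreated cells (adjusted p = 0.0123). The untreated call was lost without EpiLC replicate 1 (-0.48, adjusted p = 0.0556) and without EpiLC replicate 2 (-0.46, adjusted p = 0.0530). An antisense gene, Gm16136, shares 169 exon bases with Grhl2 and held 10 to 59 counts where listed, against 346 to 938 counts of Grhl2. The libraries were stranded, but how the counting treated strand is not given in the labels.

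**Figure D2:**
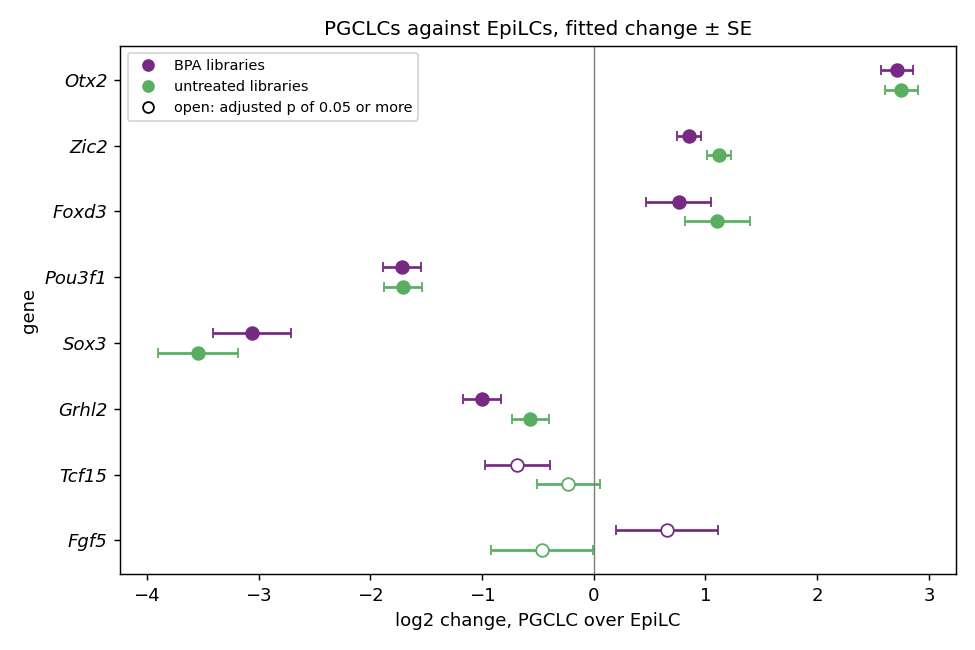
Fitted log2 change of each gene (horizontal axis, PGCLC over EpiLC) ± SE in the BPA arm and in untreated cells, 3 libraries per group, with open circles where the adjusted p was 0.05 or more. Otx2 lies at 2.71 and 2.75 and Sox3 at -3.06 and -3.54, and both arms give the same sign for every gene except Fgf5.

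Tcf15 (ENSMUSG00000068079, chromosome 2, 152143561 to 152149097, plus strand), a basic helix-loop-helix factor that primes embryonic stem cells for differentiation, was the member called between BPA and untreated PGCLCs. It measured 16.1, 16.6 and 12.5 CPM in BPA PGCLCs, against 25.2, 28.3 and 25.1 CPM in untreated PGCLCs, with a wide gap between the groups. The log2 change was -0.79 ± 0.15 (adjusted p = 0.0136), a fold of 0.580. In EpiLCs it stood at 22.3, 23.4 and 26.8 CPM with BPA and at 22.5, 19.7 and 50.4 CPM untreated, so that the groups overlapped and untreated replicate 3 stood far above the rest. The call in PGCLCs was lost without BPA replicate 1 (adjusted p = 0.0548) and in a fit of all 12 libraries (-0.80 ± 0.29, adjusted p = 0.112). By stage Tcf15 was not called, with -0.68 ± 0.29 in the BPA arm (adjusted p = 0.0603), where the groups did not overlap, and -0.23 ± 0.28 in untreated cells (adjusted p = 0.521). Without untreated EpiLC replicate 3 the untreated value was 0.26, of the opposite sign.

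The ribosomal protein share of the libraries is set beside Tcf15 here because it too separated the PGCLC arms. That share was 4.98%, 4.89% and 4.82% of gene counts in BPA PGCLCs, against 6.19%, 6.43% and 6.58% in untreated PGCLCs. It was 8.99%, 8.43% and 9.41% in BPA EpiLCs, against 9.05%, 8.35% and 14.3% in untreated EpiLCs. The library with the most Tcf15 was the one with the highest share, and the 3 with the least Tcf15 were the 3 with the lowest. Between these extremes the order did not hold, since the other 5 EpiLC libraries had higher shares than untreated PGCLCs but 19.7 to 26.8 CPM of Tcf15, within or below the 25.1 to 28.3 CPM of untreated PGCLCs. The genes whose profile over the 12 libraries was most like that of Tcf15 were Rps21, a small ribosomal subunit gene, and Ndufa3, a subunit of respiratory complex I. Their root mean square differences, over log2 CPM centred on each gene's mean, were 0.122 and 0.131, against a median of 0.630 over the genes compared. Rps21 averaged 236 ± 11.8 CPM in BPA PGCLCs and 393 ± 8.60 CPM in untreated PGCLCs. Whether the ribosomal protein share has a part in the Tcf15 difference was not tested.

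Fgf5 (ENSMUSG00000029337, chromosome 5, 98254184 to 98277030, plus strand), the one secreted ligand of the 8, was low in every group. It stood at 12.5, 13.8 and 2.63 CPM in BPA PGCLCs and 6.79, 4.11 and 4.43 CPM in untreated PGCLCs, against 6.85, 4.77 and 6.62 CPM in BPA EpiLCs and 7.26, 6.49 and 7.38 CPM in untreated EpiLCs. All 4 groups overlapped with their neighbours in order of level, and the highest and the lowest library were both BPA PGCLCs. By stage the change was 0.66 ± 0.46 in the BPA arm (adjusted p = 0.238) and -0.46 ± 0.46 in untreated cells (adjusted p = 0.415). Against untreated PGCLCs the change in BPA PGCLCs was 0.93 ± 0.54 (adjusted p = 0.320). Without BPA PGCLC replicate 3 it was 1.39 ± 0.25 (adjusted p = 0.0105), and the stage change of the BPA arm was then 1.11 ± 0.23 (adjusted p = 0.00235).

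BPA PGCLC replicate 3, in which Fgf5 was lowest, also had the lowest level of all 13 endoderm genes within its group. Their sum was 6533, 6569 and 2987 CPM in BPA PGCLCs, against 1371, 999 and 886 CPM in untreated PGCLCs. Of the defining genes, Afp and Ttr, which encode secreted proteins of the visceral endoderm, and Gata6 and Sox17, factors of that lineage, were listed in all PGCLC libraries and in no EpiLC library. The PGCLC libraries with the most Fgf5, BPA replicates 1 and 2, had the highest endoderm sum. In BPA replicate 3, with the least Fgf5, 6 of the 13 endoderm genes, among them Afp and Ttr, lay above all untreated PGCLC libraries, 5 (Sox17, Sox7, Hhex, Cubn and Lama1) lay below all of them, and 2 lay within their range. The genes most like Fgf5 in profile were Slc5a5, an iodide transporter, and Tspan5, a tetraspanin, with root mean square differences of 0.361 and 0.364 against a median of 0.745. Slc5a5 averaged 27.7 ± 11.9 CPM in BPA PGCLCs and 10.5 ± 1.83 CPM in untreated PGCLCs. The part of endoderm cells in the Fgf5 values was not tested.

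**Figure D3:**
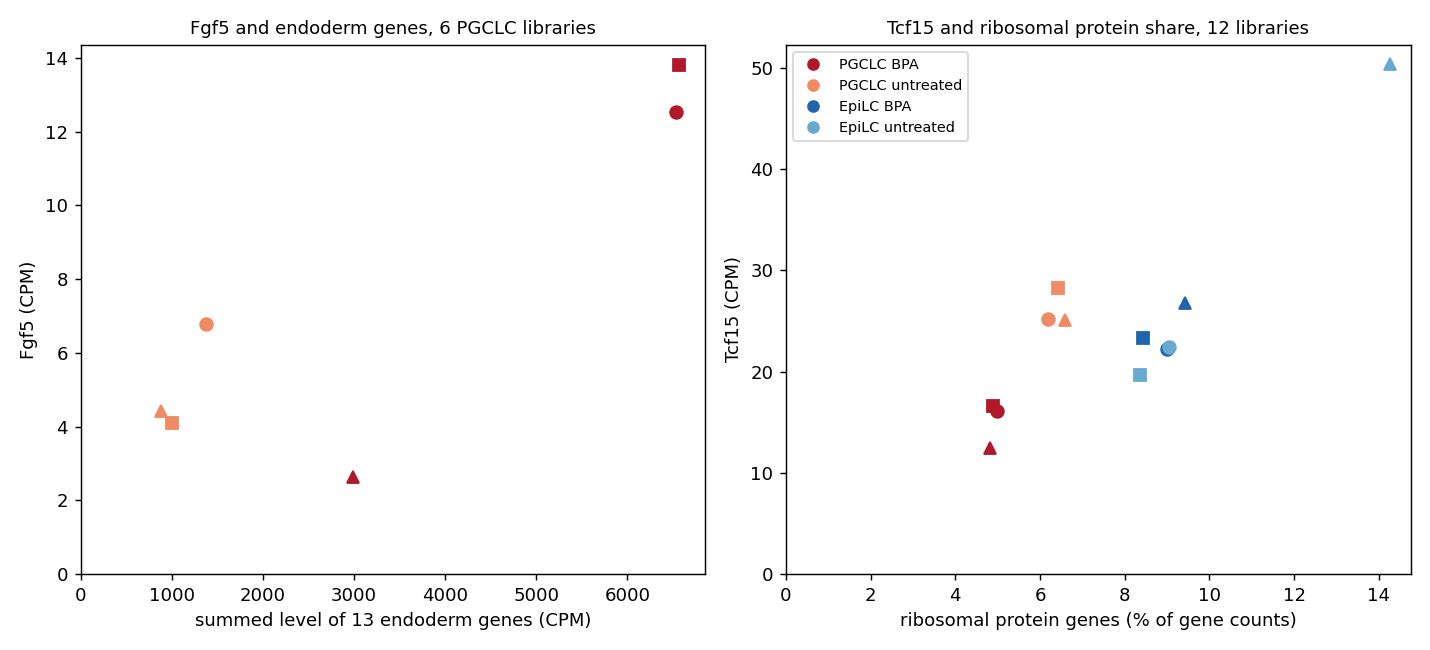
Left, Fgf5 (CPM) against the summed level of 13 endoderm genes (CPM) in the 6 PGCLC libraries; right, Tcf15 (CPM) against the share of gene counts in ribosomal protein genes (percent) in all 12 libraries, with circles, squares and triangles for replicates 1, 2 and 3. BPA PGCLC replicate 3 sits at 2.63 CPM of Fgf5 and 2987 CPM of endoderm genes, and untreated EpiLC replicate 3 at 50.4 CPM of Tcf15 and 14.3%.

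BPA libraries were set against untreated ones within each stage. In PGCLCs 1 of the 8 genes was called, Tcf15, which was lower, where 13.9% of the 16753 genes tested were called and 5.72% were called lower; a share of 1 in 8 is near that background. The groups did not overlap for Tcf15 and Zic2, and 35.2% of all genes tested had groups that did not overlap. The Zic2 change was -0.17 ± 0.09 (adjusted p = 0.244). The other changes in PGCLCs were -0.28 ± 0.26 for Foxd3 (adjusted p = 0.577), -0.12 ± 0.13 for Grhl2 (adjusted p = 0.624), 0.32 ± 0.42 for Sox3 (adjusted p = 0.708) and 0.07 ± 0.13 for Pou3f1 (adjusted p = 0.797). In EpiLCs 0 of 8 were called, as were 0.0% of the 15252 genes tested by edgeR, of which 118 had an unadjusted p under 0.05, and DESeq2 called 16 of all genes and none of the 8. Their EpiLC changes ran between -0.32 ± 0.34 for Tcf15 and 0.31 ± 0.19 for Grhl2, with adjusted p of 0.943 to 0.980. No member's EpiLC groups were apart, where 6.03% of all genes had groups that did not overlap. A p above the threshold does not show that the genes were alike in the 2 groups.

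**Figure D4:**
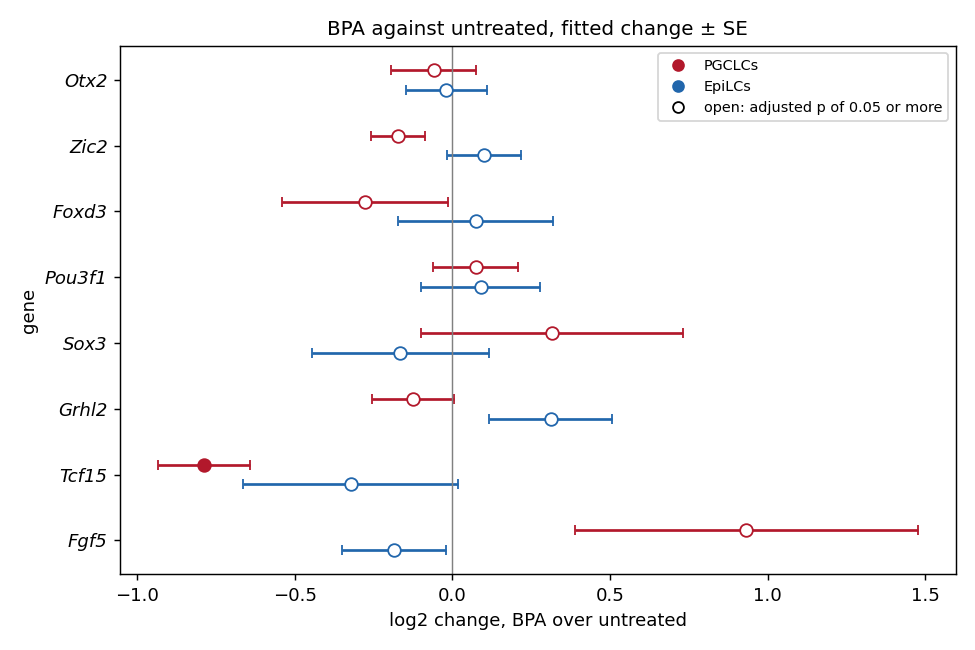
Fitted log2 change of each gene (horizontal axis, BPA over untreated) ± SE in PGCLCs and in EpiLCs, 3 libraries per group, with open circles where the adjusted p was 0.05 or more. Tcf15 in PGCLCs, at -0.79 ± 0.15, is the filled point, and Fgf5 in PGCLCs has the widest error, at 0.93 ± 0.54.

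Whether BPA acted differently in the stages was tested as the interaction, the effect in PGCLCs minus that in EpiLCs. By edgeR 0 of the 8 genes were called, where 1.32% of the 17608 genes tested were called and 2449 had an unadjusted p under 0.05; DESeq2 also called none of the 8. The values with the smallest p were -0.43 ± 0.23 for Grhl2 (adjusted p = 0.452), -0.27 ± 0.15 for Zic2 (adjusted p = 0.478) and 1.12 ± 0.65 for Fgf5 (adjusted p = 0.496). This also means that none of the stage changes was shown to differ between the arms. Single libraries decided some of these values. Without BPA PGCLC replicate 3 the Fgf5 interaction was 1.57 ± 0.32 (adjusted p = 0.0197), and without untreated EpiLC replicate 3 the Tcf15 interaction was -0.96 ± 0.20 (adjusted p = 0.0272).

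Levels between the genes were compared per kilobase of exon, taking all annotated exons of a gene together, and the order of some genes depends on that length. In BPA PGCLCs Zic2 was highest, at 32.6 ± 1.24 CPM per kilobase, followed by Otx2 at 17.4 ± 2.70 and Tcf15 at 15.4 ± 2.29, whose levels lie within each other's spread. In untreated PGCLCs Zic2 led at 37.1 ± 3.89 CPM per kilobase, followed by Tcf15 at 26.7 ± 1.83 and Otx2 at 18.3 ± 1.90. Sox3 was the lowest of the 8 in PGCLCs, at 1.28 ± 0.278 CPM per kilobase in the BPA arm and 1.04 ± 0.462 in untreated cells. In BPA EpiLCs Tcf15 led at 24.6 ± 2.41 CPM per kilobase, followed by Zic2 at 18.0 ± 1.11, Pou3f1 at 13.9 ± 0.688 and Sox3 at 10.6 ± 1.02. Untreated EpiLCs had the same 4 genes in front, with Tcf15 at 31.5 ± 17.3, Zic2 at 17.0 ± 1.74, Pou3f1 at 13.3 ± 3.62 and Sox3 at 12.1 ± 5.36 CPM per kilobase. Otx2 and Fgf5, textbook markers of EpiLCs, were the lowest of the 8 there on this length. Otx2 stood at 2.66 ± 0.261 CPM per kilobase in BPA EpiLCs and 2.71 ± 0.187 in untreated EpiLCs, and Fgf5 at 2.43 ± 0.456 in BPA EpiLCs and 2.82 ± 0.193 in untreated EpiLCs. Per kilobase of coding sequence Otx2, not Zic2, was highest in PGCLCs, at 82.6 against 59.2 in the BPA arm and 86.8 against 67.3 in untreated cells. By that length Foxd3 was the lowest in EpiLCs, at 6.47 with BPA and 6.27 untreated, below Fgf5 at 7.68 and 8.90 and Otx2 at 12.6 and 12.9. Per kilobase of the longest transcript Foxd3, at 3.92 with BPA and 3.79 untreated, lay below Otx2, at 4.33 and 4.42, and Fgf5 stayed the lowest. Tcf15 in EpiLCs and Sox3 in PGCLCs kept the first and the last place by all 3 lengths.

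**Figure D5:**
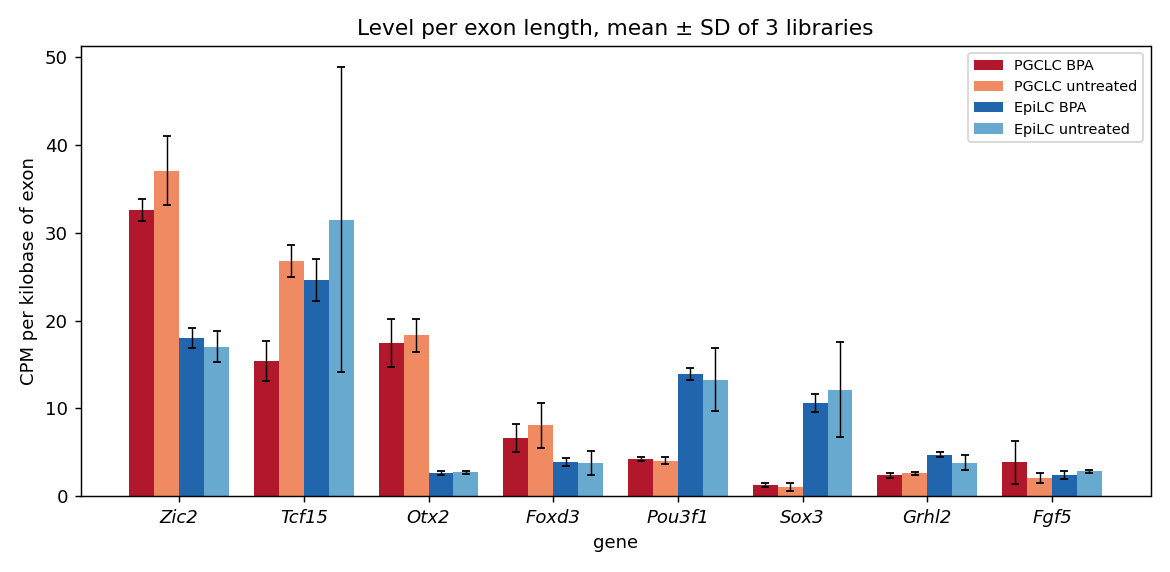
Level of each gene per exon length (vertical axis, CPM per kilobase of exon, from 0) in the 4 groups, bars being means and error bars SD of 3 libraries. On this length Zic2 is highest in PGCLCs and Tcf15 in EpiLCs, and the long error bar of Tcf15 in untreated EpiLCs, 31.5 ± 17.3, comes with the value of replicate 3.

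The genes with the most similar profiles over the 12 libraries were named for the other members too. Smtnl2 lay near Otx2, at a root mean square difference of 0.136, and the nearest to Zic2 were Gkap1 at 0.0828 and the fatty acid oxidation enzyme gene Acadm at 0.0994. Pou3f1 lay closest to Mvk (0.129) and Acat2 (0.139), which encode enzymes of the mevalonate pathway and of acetoacetyl-CoA synthesis. Sox3 lay closest to Hes6 (0.277), a basic helix-loop-helix factor, Foxd3 to Cox18 (0.219) and Grhl2 to Clspn (0.0911), a gene of the replication checkpoint. Among the 8 themselves the most alike were Zic2 and Foxd3, at 0.245, which is farther than the nearest outside gene of either.

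Other formative and primed epiblast genes also split by stage. Of 20 on the list, 5 were higher and 11 lower in untreated PGCLCs than in untreated EpiLCs, with a median log2 change of -0.71 beside 0.074 over all genes tested. Of all genes tested, 30.4% were called higher and 25.2% lower. The de novo DNA methyltransferase genes were among the lower ones: Dnmt3a averaged 86.4 ± 12.9 CPM in untreated PGCLCs and 676 ± 54.5 CPM in untreated EpiLCs (-2.97 ± 0.12, adjusted p = 3.18e-09), and Dnmt3b 192 ± 7.92 CPM in untreated PGCLCs and 638 ± 101 CPM in untreated EpiLCs (-1.73 ± 0.12, adjusted p = 2.61e-07). Lef1, a Wnt effector, fell by 1.41, and Tcf7l1, a Wnt repressor of naive genes, was higher by 1.62 ± 0.13 (adjusted p = 8.30e-07). In BPA PGCLCs against untreated ones 3 of the 20 were higher and 2 lower, with a median of -0.046 beside 0.0080 over all genes. The share called over all genes tested was 13.9%. The higher ones on the list were Cldn6 (1.89 ± 0.30, adjusted p = 0.00737), Dnmt3a (0.53 ± 0.11, adjusted p = 0.0191) and Lef1 (0.56 ± 0.13, adjusted p = 0.0299). The lower ones on the list included the ERK target Etv4 (-0.65 ± 0.17, adjusted p = 0.0439). Dnmt3a stayed far below its EpiLC level, at 123 ± 2.83 CPM in BPA PGCLCs.

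Family relatives did not follow the members. Of 19 relatives, 12 could be tested by stage in untreated cells, 5 being higher and 1 lower, where 55.6% of all genes tested were called. Sox2, the SOXB1 factor of pluripotency, was higher by 3.78 ± 0.12 (adjusted p = 9.31e-10), where Sox3 fell by 3.54, while Sox1, the other SOXB1 gene, fell by 3.38. Grhl3 was higher by 4.75 ± 0.15 (adjusted p = 8.09e-10), averaging 58.0 ± 2.21 CPM in untreated PGCLCs and 2.14 ± 0.248 CPM in untreated EpiLCs, where Grhl2 was lower. Fgf4, the FGF of naive cells, was higher by 1.66 ± 0.09 (adjusted p = 3.26e-08). The 5 also include Otx1, unlisted in untreated EpiLCs and at least 1.44-fold higher. In BPA PGCLCs, of 10 relatives tested, 2 were lower, among them Sox2 (-0.29 ± 0.07, adjusted p = 0.0288), and none was higher. Of all genes tested there, 13.9% were called and 5.72% were called lower.

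Genes around the members' functions were read the same way. The share of all genes tested that was called was 55.6% by stage in untreated cells and 13.9% with BPA in PGCLCs. Of 14 FGF receptor and ERK feedback genes, 9 were higher and 4 lower by stage in untreated cells (median 0.54), such as the receptor Fgfr2 (1.53 ± 0.15), the target Etv5 (1.19 ± 0.11), Etv4 (-1.50 ± 0.16) and the phosphatase gene Dusp6 (-0.83 ± 0.09). With BPA in PGCLCs 4 were higher and 4 lower (median 0.0089), among them the feedback inhibitors Spry4 (-0.70 ± 0.11, adjusted p = 0.00840) and Spry2 (-0.50 ± 0.09, adjusted p = 0.0101), Dusp6 (-0.30 ± 0.07, adjusted p = 0.0355) and the immediate early gene Egr1 (0.89 ± 0.18, adjusted p = 0.0174). The list did not move one way: the feedback inhibitor Spry1 (0.60 ± 0.16, adjusted p = 0.0463), the phosphatase gene Dusp4 (0.34 ± 0.09, adjusted p = 0.0446) and the receptor gene Fgfr3 (1.38 ± 0.36, adjusted p = 0.0425), named after their values were seen, were higher. Of 7 genes for dimer partners of Tcf15 and Id proteins, which sequester those partners, 6 were higher by stage in untreated cells. Among the Id genes, Id1 was higher by 6.25 ± 0.25, Id3 by 4.57 ± 0.20 and Id2 by 3.15 ± 0.16. Id4, unlisted in all EpiLC libraries, was at least 36.6-fold higher, reckoned with 9 counts per EpiLC library. The partner genes moved less, Tcf4 by 0.84 ± 0.19 and Tcf3 by 0.49 ± 0.12, and Tcf12 was not called (0.35 ± 0.21, adjusted p = 0.169). In the BPA arm 5 of the 7 were higher, where 57.5% of all genes tested were called. With BPA 0 of the 7 were called in PGCLCs by edgeR, which for 7 genes is near the 13.9% called over all genes. The smallest adjusted p was that of Id4 (-0.56 ± 0.23, adjusted p = 0.149).

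Of 10 epithelial genes known as targets of Grhl2, 5 were higher and 1 lower by stage in untreated cells (median 0.42), where Grhl2 was lower. That share is near the 55.6% called over all genes tested. Rab25 by 1.83 ± 0.23, Ovol1 by 1.80 ± 0.42 and Cldn4 by 1.00 ± 0.16 were higher, and Epcam (-0.38 ± 0.10) was lower. In BPA PGCLCs 5 of the 10 were higher and none lower (median 0.53), with Grhl2 not called. There 13.9% of all genes tested were called, in either direction. Spint1, a protease inhibitor, changed by 1.07 ± 0.13 (adjusted p = 0.00313), Cldn4 by 0.95 ± 0.13 (adjusted p = 0.00444), Cldn6 by 1.89 ± 0.30 and the cadherin Cdh1 by 0.53 ± 0.09 (adjusted p = 0.0101). Cldn6 and Spint1 were also called in the interaction, at 1.88 ± 0.36 (adjusted p = 0.0250) and 1.18 ± 0.21 (adjusted p = 0.0177). The interaction called 1.32% of all genes tested. Cldn6 stood at 309, 300.0 and 137 CPM in BPA PGCLCs, lowest in the library with the lowest endoderm sum. Spint1 stood at 148, 144 and 107 CPM there, in the same order, and the part of endoderm cells in these values was not tested.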

How the data were processed

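Libraries were strand-specific mRNA preparations, per the labels' protocols. The authors deposited whole-read counts per Ensembl gene, 1 file per library, without genes under 10 counts, and STAR, HTSeq, FastQC, bcl2fastq 2.19.1.403 and the mm10 build are named in the submitters' processing notes. Reads without a feature were 4.42% to 10.7% and ambiguous ones 4.56% to 6.07%, and both were left out. The deposited CPM tables, 1 per stage, hold the same counts over a library constant (to within 0.1% for all genes compared), and served for symbols and 1 alternative. Symbols, coordinates and exon lengths came from GENCODE M21.

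The edgeR 4.0.16 quasi-likelihood test (R 4.3.3) was run after filterByExpr and TMM scaling, with unlisted genes as 0, Benjamini-Hochberg adjustment over all genes tested and a threshold of 0.05. BPA was tested within each stage (6 libraries), and stage and interaction in 1 fit of 12 libraries with 4 group means. CPM are of TMM-scaled libraries. The SE is the log2 change over the square root of F. The pipeline was tested on simulated data. Named were the 8 genes, for each the 2 with the smallest root mean square difference of centred log2 CPM (prior count 2, mean of at least 5 CPM), and called genes of each list with the smallest p. Endoderm and neuroectoderm lists are given as sums. Some genes that the rule names are not reported here. Members, lists and tests were chosen with earlier results of these data known. The settings varied were the scaling (RLE, library size), the filter (none, or 1 CPM in 3 libraries), the tool (DESeq2 1.42.0, limma 3.58.1 voom, limma-trend on deposited CPM), unlisted genes as 9, the replicate number as a block, other sets of libraries in the fit, and each library left out.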

Additional observations from a re-analysis of the deposited data

How the results depend on the processing

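Over 656 refits of the 8 genes' changes, 610 kept direction and side of the threshold, 24 changed sign, 13 lost and 9 gained a call. The stage calls of Otx2, Zic2, Sox3 and Pou3f1 in both arms, of Grhl2 in the BPA arm and of Foxd3 in untreated cells held under all alternatives run. Grhl2 in untreated cells was not called with unlisted genes as 9 (-0.33), a setting that moves the median of all genes by 0.28 (BPA arm) and 0.24 (untreated). Foxd3 in the BPA arm was not called with RLE factors (0.70), DESeq2 or limma voom (0.76). Tcf15 in the BPA arm was called with RLE factors (-0.75), DESeq2, library size alone (-0.71), limma voom (-0.70) and the BPA libraries alone (-0.68). The number called with BPA in PGCLCs was 0 in 1 fit of all 12 libraries, and 0 to 2 with a library left out. In the interaction it was 0 to 1 with a library left out. Signs turned, all without a call, with unlisted genes as 9 for Tcf15 by stage in untreated cells (0.012) and in the interaction for Otx2 (0.016) and Pou3f1 (0.040). With a library left out, ranges that crossed 0 were, for BPA in EpiLCs, Otx2 -0.087 to 0.049, Pou3f1 -0.062 to 0.30, Sox3 -0.36 to 0.23, Tcf15 -0.56 to 0.20 and Foxd3 -0.076 to 0.38. For BPA in PGCLCs they were Otx2 -0.15 to 0.070 and Pou3f1 -0.0087 to 0.14, for stage in untreated cells Tcf15 -0.47 to 0.26, and for the interaction Otx2 -0.12 to 0.086 and Pou3f1 -0.21 to 0.15. The cause was not tested. Over all genes, DESeq2 called 16 for BPA in EpiLCs. For BPA in PGCLCs edgeR called 2321, and 677, 668 and 3206 without BPA replicate 1, 2 and 3 and 1243, 1110 and 891 without untreated replicate 1, 2 and 3. For the interaction it called 232, against 897 by DESeq2, 141 by limma voom, 519 with unlisted genes as 9 and 83 to 767 with a library left out, 767 without untreated EpiLC replicate 3 and 744 without BPA PGCLC replicate 3. No pairing by replicate number was seen in the profiles. Same-numbered libraries' deviations correlated at -0.021 to 0.057, and 9 of 24 library comparisons were closest to their own number. Taken from means of only 3 libraries, these deviations cannot tell whether same-numbered libraries shared a culture or batch. With the replicate block the interaction called 150 genes, and no call of the 8 genes changed. With coding length or the longest transcript in place of all exons, 24 to 27 of 28 pairs of genes kept their order within a group. Precision is limited by 3 libraries a group and, for Sox3 and Fgf5 in PGCLCs, by few reads.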
